A study of Mus musculus with 6 samples.

Results

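Scavenger receptors are cell surface proteins with which macrophages take up modified lipoproteins, microbes, dying cells and protein complexes. They are grouped by structure rather than by descent, and a single macrophage carries several classes at once. Class A receptors (Msr1, Marco) are collagen-like trimers, class B receptors (Cd36, Scarb1) span the membrane at both ends, and Olr1 is a lectin-like receptor for oxidised LDL. Cd163 takes up complexes of haemoglobin and haptoglobin, and Lrp1, a large member of the LDL receptor family, takes up apolipoprotein E, protease complexes and many other ligands. These 7 genes were taken by symbol from the 15415 genes of the deposited expression table, and all 7 were listed.

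RNA-seq of mouse peritoneal macrophages (PEMs) was used to ask how loss of macrophage Tim-4, a phosphatidylserine receptor encoded by Timd4, changed gene expression. The genotype behind the PEM-CKO libraries (n = 3) was LysM-Cre; Tim-4 fl/fl, and that behind the PEM-Control libraries (n = 3) was Tim-4 fl/fl, so that both carried the floxed allele, on C57BL/6J. According to the methods of the study the mice were males aged 6 to 8 weeks, and the PEMs were collected 3 days after intraperitoneal injection of 6% starch. All 6 libraries are labelled as LPS-treated. The methods describe 1 µg/ml for 3.5 hours as the activating dose without saying whether it was used for sequencing. Cre is expressed from the Lyz2 gene in LysM-Cre mice and acts in macrophages, monocytes and neutrophils, and the controls carried no Cre, so that the Cre allele and the loss of Tim-4 cannot be told apart. The genotype labels run opposite to the sample titles, and the libraries were grouped by title, which the column names and the study's naming follow. Nothing in the labels says that the libraries came from separate animals, so the p-values measure the spread between these libraries, which may be technical.

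The libraries held 36170767 to 42217558 reads. Timd4 was at 0.334, 0.394 and 0.246 FPKM (fragments scaled to transcript length and library size) in PEM-CKO-1 to PEM-CKO-3, and at 19.5, 12.1 and 1.19 FPKM in PEM-Control-1 to PEM-Control-3. Every PEM-CKO library was below every control, but PEM-Control-3 stood well below the other controls. The fall of Timd4 did not pass the threshold (log2 fold change −2.66 ± 0.741 (SE), limma, Benjamini-Hochberg adjusted p = 0.0715), but it passed with the replicate block (limma adjusted p = 0.0436), with a pseudocount of 0.1 (limma adjusted p = 0.0458) and without PEM-Control-3 (limma adjusted p = 0.00041). Lyz2, the gene that carries Cre, was at 41.4, 4656 and 106 FPKM in PEM-CKO and at 7090.0, 7171 and 8482 FPKM in the controls, so that PEM-CKO-2 stood apart from the other PEM-CKO libraries, and Lyz2 passed only without it (limma adjusted p = 0.103 with it and 0.00552 without). Of 6 macrophage markers Adgre1 and Itgam were at 234.7 to 399.9 FPKM in all 6 libraries and Mertk at 0.821 to 12.1 FPKM, with overlapping groups. Csf1r was lower in every PEM-CKO library (83.3 to 143 FPKM) than in any control (151.5 to 179.6 FPKM), Cd68 was higher in every one (1572 to 1685 against 816 to 1379 FPKM), and Fcgr1 was 8.22 times higher in mean. Of these markers Fcgr1 alone passed the threshold with all libraries, Cd68 passed without PEM-Control-3 (limma adjusted p = 0.0219) and Csf1r without PEM-CKO-3 (limma adjusted p = 0.0243).

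The promoters of Marco, Olr1 and Lrp1 are shown because these were 3 of the 4 members that passed the test without PEM-Control-3, with Marco and Olr1 lower and Lrp1 higher in PEM-CKO. RefSeq promoter entries (GRCm38.p6, a later build than the mm9 that the submitters' processing notes name) were matched for 5 of the 7 members. Each run below is the 250 bases before the annotated start site, 5′ to 3′ on the strand of the gene. Capitals mark matches on either strand to GAGGAA (the PU.1 core), TGANTCA (AP-1), TGCTGAC (a MAF site), GGGCGG (the GC box), GAAANNGAA (the ISRE core) or CCAAT. The Marco run lies at chr1:120505025-120505274 on the minus strand, the Olr1 run at chr6:129507166-129507415 on the minus strand and the Lrp1 run at chr10:127621149-127621398 on the minus strand.
Marco: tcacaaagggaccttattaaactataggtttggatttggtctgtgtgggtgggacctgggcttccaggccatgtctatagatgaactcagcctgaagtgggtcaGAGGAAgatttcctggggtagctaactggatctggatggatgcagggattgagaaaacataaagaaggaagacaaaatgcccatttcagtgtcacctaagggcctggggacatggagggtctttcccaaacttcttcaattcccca
Olr1: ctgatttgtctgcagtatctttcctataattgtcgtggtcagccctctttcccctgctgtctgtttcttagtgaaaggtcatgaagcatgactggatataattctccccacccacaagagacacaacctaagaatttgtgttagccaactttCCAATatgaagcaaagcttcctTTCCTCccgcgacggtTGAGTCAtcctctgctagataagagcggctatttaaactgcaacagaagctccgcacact
Lrp1: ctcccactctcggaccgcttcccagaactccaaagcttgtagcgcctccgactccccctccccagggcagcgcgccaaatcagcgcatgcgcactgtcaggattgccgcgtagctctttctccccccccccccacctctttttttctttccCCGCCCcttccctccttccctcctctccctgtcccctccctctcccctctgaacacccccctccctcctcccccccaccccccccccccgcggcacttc

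The Marco run held 1 GAGGAA, 146 to 141 bases before the start, and none of the other motifs. The Olr1 run held GAGGAA on the minus strand 76 to 71 bases before the start, TGANTCA 60 to 54 bases before it and CCAAT 98 to 94 bases before it. The Lrp1 run held 1 GGGCGG on the minus strand, 99 to 94 bases before the start, and was 67.2% G or C, against 47.6% for Marco, 45.2% for Olr1 and a median of 52.0% over 27025 promoters. Of these promoters 23.1% held GAGGAA, 32.9% GGGCGG, 34.5% CCAAT, 7.16% GAAANNGAA, 6.87% TGANTCA and 3.72% TGCTGAC in the same window. TGANTCA was the rarest of the motifs found, and a match of letters does not show that a factor binds there.

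None of the 6 scavenger receptor genes that could be tested passed the threshold between PEM-CKO and PEM-Control, although the mean level in PEM-CKO was 0.168 times that in PEM-Control for Marco and 1.71 times for Lrp1. Marco had a mean of 56.0 ± 48.4 FPKM (SD, n = 3) in PEM-CKO and 333 ± 253 FPKM (SD, n = 3) in PEM-Control. Lrp1 had the opposite direction, with 131 ± 11.1 FPKM in PEM-CKO and 76.7 ± 27.9 FPKM in PEM-Control. Cd36, the most abundant of the 7 by mean level, and Scarb1 differed little in mean, while Msr1 and Olr1 were lower in PEM-CKO than in 2 of the 3 controls. The test was limma on log2(FPKM + 1) over 9030 genes with a mean of at least 1 FPKM in a group, and fold changes are on that scale, which understates changes of low genes.

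By this test 0 of 6 members were called, against 7.31% of all 9030 tested genes (660 genes, 232 higher and 428 lower in PEM-CKO). Without adjustment 2 members, Marco and Lrp1, had a p below 0.05, as had 2494 of all tested genes, and limma-voom on the recovered reads also called 0 members. The median log2 fold change was −0.04 over the 6 members and −0.11 over all tested genes. When the libraries were rescaled by the median of ratios, the median of all genes moved to 0.01, and 1 member, Lrp1, was then called. In bulk RNA fewer cells of a type and less RNA per cell cannot be told apart.

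**Figure D1:**
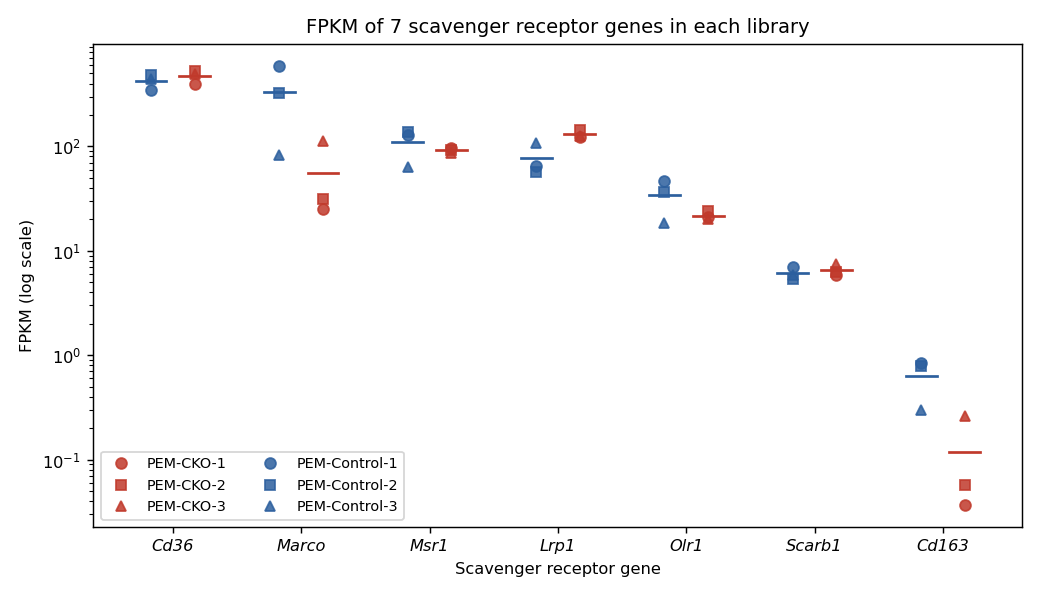
FPKM of each scavenger receptor gene (log axis) in each of the 6 libraries, with PEM-Control in blue on the left and PEM-CKO in red on the right of each pair; marker shape gives the library number and a horizontal line the mean of the 3 libraries. PEM-Control-3 (blue triangle) is the lowest control for Marco, Msr1, Olr1 and Cd163 and the highest for Lrp1.

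Marco, a class A receptor for bacteria and particles, was at 25.1, 31.1 and 112 FPKM in PEM-CKO-1 to PEM-CKO-3 and at 589, 327 and 83.05 FPKM in PEM-Control-1 to PEM-Control-3. The first 2 libraries of each group were far apart, but PEM-CKO-3 was above PEM-Control-3 and the groups overlapped. The log2 fold change was −2.47 ± 0.796 (SE), with a 95% interval of −4.34 to −0.61 and a Benjamini-Hochberg limma adjusted p of 0.102. It was the 35th largest change in size among the 9030 tested genes. An exact two-sided permutation test on Marco alone gave p = 0.2, where the smallest value that 3 against 3 libraries allow is 0.1.

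Without PEM-Control-3 the log2 fold change of Marco was −3.27 and the limma adjusted p 0.0182, and over all 13 alternatives the adjusted p ranged from 0.0182 to 0.305. Without PEM-CKO-2 it was −2.22 with an adjusted p of 0.305, and without PEM-CKO-3, the highest PEM-CKO library, −3.13 with an adjusted p of 0.0705. The smallest change was that without PEM-Control-1, at −1.86 with an adjusted p of 0.145 and a ratio of means of 0.273. The direction was the same in all 13 alternatives, while PEM-Control-3 alone decided whether Marco was called.

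Msr1, which encodes the class A receptor SR-A1 for acetylated and oxidised LDL, was at 97.1, 93.2 and 86.0 FPKM in PEM-CKO and at 129.6, 138.5 and 63.0 FPKM in PEM-Control. The PEM-CKO libraries were close together and fell between PEM-Control-3 and the other controls. The log2 fold change was −0.18 ± 0.29 (95% interval −0.86 to 0.50, limma adjusted p = 0.717). Without PEM-Control-3 it was −0.54 with an adjusted p of 0.0334, and without PEM-Control-2 it turned to 0.02. Over the 13 alternatives the adjusted p of Msr1 lay between 0.0334 and 0.971. Within each library Marco was at 0.259, 0.333 and 1.30 times the FPKM of Msr1 in PEM-CKO, and at 4.55, 2.36 and 1.32 times in PEM-Control. Marco was thus below Msr1 in PEM-CKO-1 and PEM-CKO-2 and above it in the other libraries, and PEM-CKO-3 and PEM-Control-3 had nearly the same ratio.

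Cd36, a class B receptor for oxidised LDL, long-chain fatty acids and thrombospondin, was at 393, 525.5 and 489 FPKM in PEM-CKO and at 343, 482 and 443 FPKM in PEM-Control. The ranges overlapped over most of their length. The log2 fold change was 0.15 ± 0.18, and its 95% interval of −0.27 to 0.58 leaves out a change of 2-fold in either direction (limma adjusted p = 0.608). Scarb1, the HDL receptor SR-B1, was at 5.92, 6.31 and 7.49 FPKM in PEM-CKO and at 6.99, 5.32 and 5.91 FPKM in PEM-Control, again with overlapping groups. Its log2 fold change was 0.10 ± 0.147 with a 95% interval of −0.24 to 0.45 (limma adjusted p = 0.689). Neither class B gene was called in any of the 13 alternatives, where log2 fold changes ran from 0.01 to 0.30 for Cd36 and from 0.01 to 0.27 for Scarb1.

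Olr1, which encodes the oxidised LDL receptor LOX-1, was at 20.95, 23.9 and 20.2 FPKM in PEM-CKO and at 46.8, 36.7 and 18.5 FPKM in PEM-Control. As for Msr1, the PEM-CKO libraries were close together, below PEM-Control-1 and PEM-Control-2 and above PEM-Control-3. The log2 fold change was −0.53 ± 0.311 (95% interval −1.26 to 0.20, limma adjusted p = 0.303). Without PEM-Control-3 it was −0.91 with an adjusted p of 0.0128, and over the 13 alternatives the adjusted p ranged from 0.0128 to 0.544.

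Cd163, the haemoglobin scavenger receptor, was the lowest of the 7, at 0.0369, 0.0578 and 0.260 FPKM in PEM-CKO and at 0.837, 0.780 and 0.300 FPKM in PEM-Control. These values rest on 7, 11 and 48 reads in PEM-CKO and 149, 137 and 49 reads in PEM-Control. All PEM-CKO libraries were below all controls, but the exact Poisson 95% intervals of PEM-CKO-3 (0.192 to 0.345 FPKM) and PEM-Control-3 (0.222 to 0.397 FPKM) overlapped, and these intervals cover counting error only. The mean in PEM-CKO was 0.185 times that in PEM-Control, 0.0741 times without PEM-CKO-3 and 0.146 times without PEM-Control-3, and it ranged up to 0.249 times with another library left out. Cd163 lay below the filter on low values and was not part of the main test. Fits without the filter gave log2 fold changes of −0.54 (limma adjusted p = 0.106) on log2(FPKM + 1) and −2.59 (limma-voom adjusted p = 0.0936) on the recovered reads, and neither passed. The exact permutation test gave the smallest possible p of 0.1.

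Lrp1 was at 123, 144 and 127 FPKM in PEM-CKO and at 64.9, 56.7 and 108.5 FPKM in PEM-Control. Every PEM-CKO library was above every control, with PEM-Control-3 the closest. The mean was 1.71 times higher in PEM-CKO, and the log2 fold change was 0.82 ± 0.241 (95% interval 0.26 to 1.39, limma adjusted p = 0.0818, exact permutation p = 0.1). Lrp1 passed after rescaling by the median of ratios (log2 fold change 0.97, adjusted p = 0.0483) and without PEM-Control-3 (1.10, adjusted p = 0.00481), but in no other of the 13 alternatives. Without PEM-CKO-2 it was 0.75 with an adjusted p of 0.278, the highest of the alternatives. Lrp1 was the only tested member whose groups did not overlap, and Cd163 was the other of the 7, against 34.1% of all tested genes whose groups did not overlap.

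**Figure D2:**
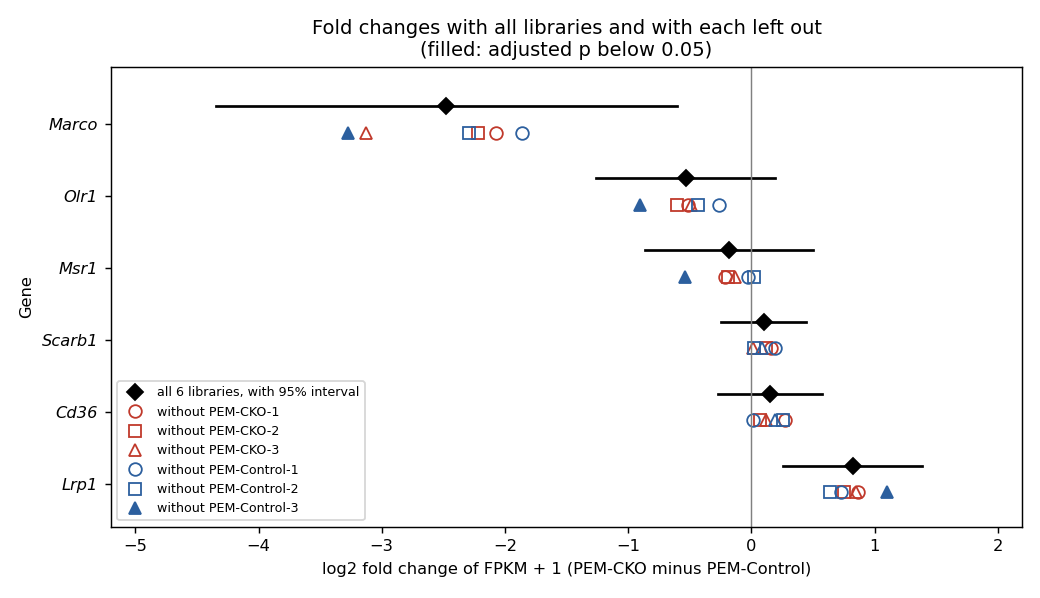
Log2 fold change (PEM-CKO minus PEM-Control, FPKM + 1) of the 6 tested scavenger receptor genes with all 6 libraries (black diamond, line for the 95% interval) and with each library left out (coloured markers, filled where the limma adjusted p was below 0.05). The only filled markers are those without PEM-Control-3, for Marco, Olr1, Msr1 and Lrp1.

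PEM-Control-3 was the control with the lowest level of Marco, Msr1, Olr1 and Cd163 and the highest level of Lrp1, and it also had the lowest Timd4. Without it 4 of 6 members were called (Marco, Msr1 and Olr1 lower, Lrp1 higher), against 14.2% of all tested genes in the same fit. Leaving out any of the other 5 libraries gave 0 called members.

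The order of levels, compared per length, differed between the groups. In PEM-CKO the mean FPKM fell from Cd36 through Lrp1, Msr1, Marco, Olr1 and Scarb1 to Cd163, and among neighbours in this order only Msr1 and Marco had overlapping ranges. In PEM-Control the order was Cd36, Marco, Msr1, Lrp1, Olr1, Scarb1 and Cd163, and neighbouring ranges overlapped among the first 4. The order rests on the gene lengths behind the FPKM, which the values imply to be 15085 bases for Lrp1, 8539 for Msr1, 4057 for Cd36 and 1925 for Marco.

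Summed over the 7 genes the level was 666, 824 and 841 FPKM in PEM-CKO and 1182, 1046 and 722 FPKM in PEM-Control. Marco made up 3.77%, 3.77% and 13.3% of this sum in PEM-CKO and 49.9%, 31.2% and 11.5% in PEM-Control. Lrp1 made up 18.5%, 17.5% and 15.1% in PEM-CKO and 5.49%, 5.42% and 15.0% in PEM-Control. By both shares PEM-Control-3 lay beside PEM-CKO-3 rather than beside the other controls. The FPKM of Lrp1 was 4.91, 4.63 and 1.13 times that of Marco in PEM-CKO, and 0.110, 0.174 and 1.31 times in PEM-Control.

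**Figure D3:**
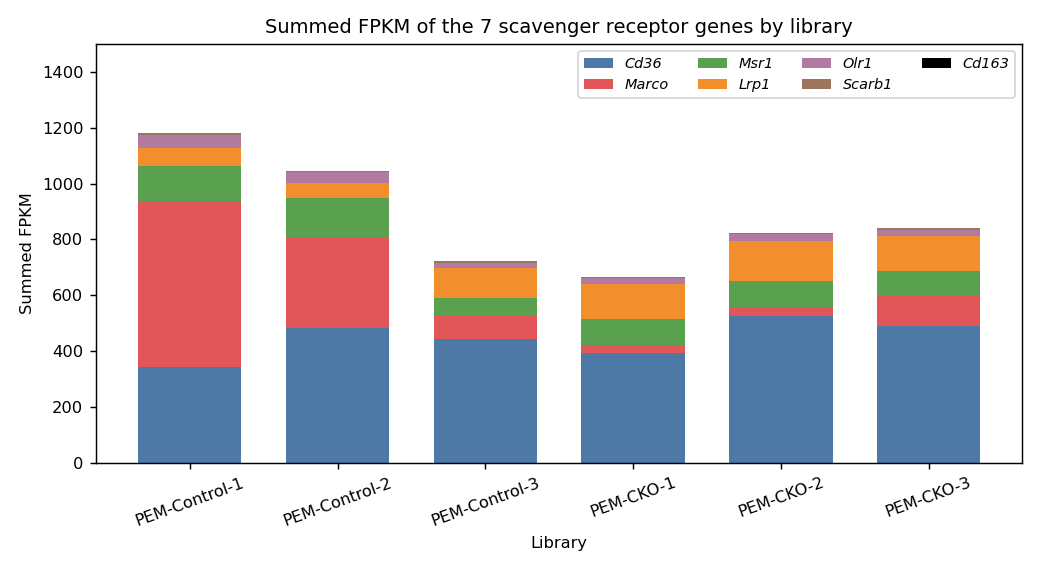
Summed FPKM of the 7 scavenger receptor genes in each library, with each coloured block the FPKM of a gene; Scarb1 and Cd163 are too low to see or nearly so. Marco (red) is the largest block in PEM-Control-1 at 589 FPKM and is 83.05 FPKM in PEM-Control-3, while Cd36 (blue) is between 343 and 525.5 FPKM in every library.

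For each tested member the 2 genes with the most similar profile over the 6 libraries were taken from 5454 genes, by the root mean square (rms) difference of centred log2(FPKM + 1). Marco was nearest to Acpp, at 2.76, 2.38 and 11.2 FPKM in PEM-CKO and 41.1, 30.5 and 13.8 FPKM in PEM-Control (rms difference 0.417), followed by Serpinb2 (0.499). The rms size of the profile of Marco itself was 1.63, the largest of the tested members. Lrp1 was nearest to Igf2r, at 59.3, 73.7 and 66.3 FPKM in PEM-CKO and 37.3, 34.8 and 54.9 FPKM in PEM-Control (rms difference 0.120), followed by Gramd1b (0.126). Olr1 was nearest to Alas1 (0.090) and Sptbn1 (0.116), and Msr1 to Tmem170b (0.089) and Btg2 (0.112). The flat profiles of Cd36, with Hmgn1 (0.060) and Wls (0.071), and Scarb1, with Sdhd (0.051) and Fes (0.056), had near neighbours whose levels likewise varied little.

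Around the 7 receptors 91 genes of related lists were followed, of which 86 were listed and 68 tested. In all, 7 rose and 8 fell in PEM-CKO, which is 15 of 68 beside the 7.31% called among all genes, and the median log2 fold change over the 68 was 0.05 beside −0.11 for all genes. These lists were chosen with earlier results of these data known, and the count depended on single libraries. It was 0 without PEM-Control-2, 2 without PEM-CKO-1, 3 without PEM-CKO-2, 11 without PEM-CKO-3, 16 without PEM-Control-1 and 28 without PEM-Control-3. Of all tested genes 8 were called without PEM-Control-2 and 1278 (14.2%) without PEM-Control-3. All values for these genes below are log2 fold changes in PEM-CKO with limma adjusted p, and each call was lost without PEM-Control-2. Without PEM-CKO-2 the calls of Cd5l, Apoe (limma adjusted p = 0.0492) and Tfec (limma adjusted p = 0.0497) were kept, while for the other called genes named below the limma adjusted p ranged from 0.0516 for Fabp5 to 0.175 for Thbs1. Without PEM-CKO-1 only Cd5l and Tfec were called.

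Among other receptors, Colec12 of class A was at −1.11 (limma adjusted p = 0.0750) and the lysosomal class B protein Scarb2 at 0.45 (limma adjusted p = 0.111). Colec12 passed with the replicate block (limma adjusted p = 0.0493) and without PEM-Control-3 (limma adjusted p = 0.0200). None of the 5 tested genes of other scavenger receptor classes passed (median 0.53), and they ran from −0.65 for Scarf1 to 1.28 for the endocytic receptor Stab1. Stab1 was at 28.6, 32.3 and 24.2 FPKM in PEM-CKO and at 4.53, 9.76 and 28.2 FPKM in PEM-Control, so that PEM-Control-3 again lay among the PEM-CKO libraries. Scarf1 was at 10.2, 11.8 and 11.4 FPKM in PEM-CKO and at 42.3, 25 and 5.12 FPKM in PEM-Control. Without PEM-Control-3 both passed, with limma adjusted p of 0.00796 for Stab1 and 0.00854 for Scarf1, as did Cd68 and Cxcl16. There 3 of the 5 rose and 1 fell, beside 14.2% of all tested genes called in that fit. Cxcl16, a chemokine that in its membrane form binds oxidised LDL, also passed after rescaling (0.68, limma adjusted p = 0.0296) and with voom (limma-voom adjusted p = 0.0321). Voom also scaled the libraries by the median of ratios, so these alternatives share that step.

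Of the 2 tested proteins with scavenger receptor cysteine-rich domains, to which Marco and Cd163 also belong by domain, Cd5l fell and Lgals3bp was at 0.50 without passing. Cd5l, a secreted protein of tissue macrophages, was at 6.17, 12.8 and 6.21 FPKM in PEM-CKO and at 101, 79.7 and 54.5 FPKM in PEM-Control, with no overlap (−3.11, limma adjusted p = 0.00651). In the LDL receptor family to which Lrp1 belongs, 1 of 8 tested genes rose and 1 fell. Lrp4 rose from a mean of 0.361 to 1.61 FPKM (0.93, limma adjusted p = 0.0196) and Lrp8, the reelin and apolipoprotein E receptor, fell from 1.85 to 0.439 FPKM (−0.99, limma adjusted p = 0.0113), both at low levels, while Lrp12 at 1.11 passed only without PEM-Control-3 (limma adjusted p = 0.0159). Furin, a protease that cuts the Lrp1 precursor, was at 0.91 and did not pass (limma adjusted p = 0.0781), but passed with the replicate block (limma adjusted p = 0.0332) and without PEM-CKO-3 or PEM-Control-1.

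Of 11 tested ligands 1 rose and 1 fell. Apoe, the apolipoprotein that binds Lrp1, was at 887, 1016 and 801 FPKM in PEM-CKO and at 410.4, 307 and 316 FPKM in PEM-Control, with no overlap (1.39, limma adjusted p = 0.00981). Thbs1, which encodes the Cd36 ligand thrombospondin-1, was at 101, 103 and 189 FPKM in PEM-CKO and at 257, 273 and 277 FPKM in PEM-Control (−1.10, limma adjusted p = 0.0426). The call of Thbs1 was also lost with voom (limma adjusted p = 0.0520), without a filter on low values (limma adjusted p = 0.0739) and without PEM-Control-1 (limma adjusted p = 0.0573). Without PEM-Control-3, 3 ligands rose and 2 fell, beside 14.2% of all tested genes called in that fit.

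Of 10 tested genes for cholesterol efflux and lipid storage 4 rose and none fell (median 0.47). These were the fatty acid binding protein Fabp5 (1.26, limma adjusted p = 0.0109), the cholesterol ester hydrolase Nceh1 (1.15, limma adjusted p = 0.0318), the lysosomal cholesterol carrier Npc2 (0.64, limma adjusted p = 0.0322) and the sterol exporter Abcg1 (0.57, limma adjusted p = 0.0345). Fabp5 was at 1590.0, 1452 and 1340.0 FPKM in PEM-CKO and at 702, 523 and 617 FPKM in PEM-Control. Without a filter on low values only Fabp5 was called, and the same held without PEM-CKO-3. Without PEM-Control-3 there were 6 genes called higher, beside 14.2% of all tested genes called in that fit. The acid lipase Lipa, the lowest of this list, was at −0.07 and turned to 0.07 after rescaling.

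Of 7 genes for haem breakdown and iron export, listed because Cd163 takes up haemoglobin, 2 fell and none rose (median −0.93). A link to Cd163, which was below 1 FPKM in every library, was not tested. Hmox1, which encodes haem oxygenase, was at 391.9, 327.5 and 717 FPKM in PEM-CKO and at 1606, 1345 and 2039 FPKM in PEM-Control, with no overlap (−1.86, limma adjusted p = 0.0196). The haem transporter Slc48a1 was at 53.4, 47.7 and 101 FPKM in PEM-CKO and at 207, 175 and 193 FPKM in PEM-Control (−1.57, limma adjusted p = 0.0217), while Blvra, the highest of this list, was at 0.17. With the replicate block, which called 855 of all 9030 tested genes, 4 of the 7 fell. Blvrb (limma adjusted p = 0.0217) and Slc40a1 (limma adjusted p = 0.0389) were added there. Slc40a1, the iron exporter ferroportin, also passed with a pseudocount of 0.1 and without PEM-Control-1. For Hmox1 PEM-Control-3 was the control farthest from PEM-CKO.

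Of 14 transcription factors known to act on scavenger receptor genes 1 rose and 2 fell. Nr1h3, which encodes the oxysterol receptor LXR alpha, rose from a mean of 5.40 to 11.5 FPKM (0.98, limma adjusted p = 0.0321). The fatty acid receptor Ppard fell from 23.7 to 6.85 FPKM (−1.65, limma adjusted p = 0.0147) and Tfec, of the MITF family, from 30.05 to 11.4 FPKM (−1.33, limma adjusted p = 0.00964). Maf, at 1.28, did not pass (limma adjusted p = 0.111), but passed with the replicate block (limma adjusted p = 0.0492) and without PEM-Control-3 (0.75, limma adjusted p = 0.0396). Without PEM-Control-3, 3 factors rose and 2 fell, beside 14.2% of all tested genes called in that fit. Without a filter on low values Nr1h3 was not called. Among the 15 genes called in these lists, none changed direction after rescaling by the median of ratios, and all 15 were called there as well.

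**Figure D4:**
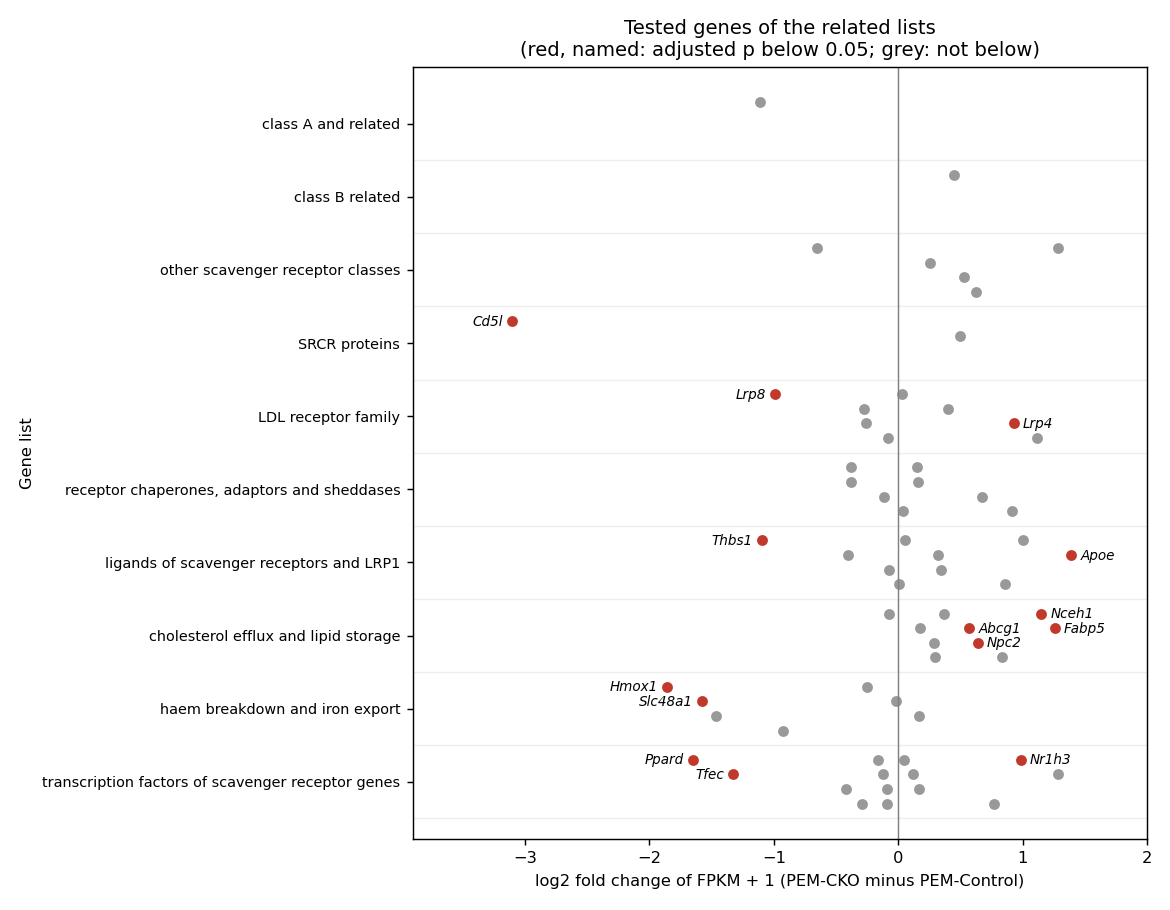
Log2 fold change (PEM-CKO minus PEM-Control, FPKM + 1) of 66 tested genes of the related lists, by list, with a point for each gene and vertical offsets only to separate points; red, named genes had a limma adjusted p below 0.05. The red points number 7 to the right of zero and 7 to the left, from Cd5l at −3.11 to Apoe at 1.39.

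The summed markers of large peritoneal macrophages, of B cells and of mast cells were lower in every PEM-CKO library than in any control. Of 6 tested markers of large peritoneal macrophages 4 fell (Icam2, Prg4, Alox15 and Vsig4), and the list's summed level over 8 genes, Timd4 included, was 4.91, 9.83 and 6.54 FPKM in PEM-CKO and 157, 99.97 and 44.6 FPKM in PEM-Control. All 4 tested B cell markers fell, with sums of 2.67 to 5.43 FPKM in PEM-CKO and 112.6, 76.5 and 26.9 FPKM in PEM-Control. In both lists PEM-Control-3 was the lowest control, as it was for Marco, Msr1, Olr1 and Cd163. All 5 tested mast cell markers fell, from sums of 38.2 to 49.3 FPKM in PEM-Control to 1.89 to 2.27 FPKM in PEM-CKO, and there PEM-Control-3 was the highest. These counts stand beside the 7.31% called among all genes. With voom 1 of the 4 B cell markers was called, and without a filter on low values 2 were. Without PEM-Control-2 none of the large peritoneal macrophage and B cell markers and 4 of the 5 mast cell markers were called. Without PEM-CKO-1 or PEM-CKO-2 no B cell marker was called, and 1 or 2 of the large peritoneal macrophage markers were, respectively.

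The 6 macrophage markers summed to 2295 to 2470.0 FPKM in PEM-CKO and 1640.0 to 2181 FPKM in PEM-Control, and 1 of them, Fcgr1, rose. Small peritoneal macrophage markers summed to 484 to 1247 FPKM in PEM-CKO and 845 to 2262 FPKM in PEM-Control (1 of 5 tested fell, Irf4), and neutrophil markers to 108.5 to 229.5 FPKM and 231 to 477 FPKM (1 of 5 fell, S100a8). The call of S100a8 was lost without PEM-CKO-1 and without PEM-Control-2. That of Irf4 was lost without those libraries, without PEM-CKO-2 or PEM-CKO-3, without a filter and with filtered voom. Irf4 did not pass the filter of 5 FPKM and was not tested there. With the replicate block 2 neutrophil markers fell, S100a8 and Retnlg. T cell, eosinophil and dendritic cell markers summed to at most 2.96 FPKM in any library and endothelial markers to 5.79 to 8.76 FPKM, with none called. Platelet markers, mostly Pf4, summed to 187 to 557 FPKM in PEM-CKO and 302 to 935 FPKM in PEM-Control, mesothelial and fibroblast markers to 11.3 to 29.0 FPKM and 2.11 to 12.4 FPKM, again with none called, and none of 4 adipocyte markers was listed. With the replicate block 2 of 4 tested mesothelial and fibroblast markers rose, Col1a1 and Pdgfra, beside 855 of all 9030 tested genes called in that fit. Pdgfra also passed with a pseudocount of 0.1 and with unfiltered voom. Without PEM-Control-3 the endothelial marker Kdr was called higher. The part of these cell type differences in the levels of the scavenger receptors was not tested.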

How the data were processed

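PEM RNA was sequenced in 3 PEM-CKO and 3 PEM-Control libraries. The authors deposited FPKM per gene and library, and group means whose scale is that of counts divided by size factors (unit signal). The build named in the submitters' notes is mm9, and aligner, counter and annotation are not given in the sources used here. Columns with the authors' fold changes, p-values and q-values were not used. FPKM and the deposited group means together gave back whole reads (100% of values whole within 0.01 read), giving the depths in the report. Listed genes only were analysed, and genes that share reads with similar copies could not be separated.

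The main test was limma 3.58.1 in R 4.3.3 on log2(FPKM + 1) with an expression trend, over all 9030 genes with a mean of at least 1 FPKM in a group, two-sided, with Benjamini-Hochberg adjustment and a threshold of 0.05. Alternatives were no filter, a filter of 5 FPKM, a pseudocount of 0.1, a replicate block, rescaling by the median of ratios, limma-voom on the recovered reads (also without a filter, chosen after seeing the data) and leaving out each library. Voom took library sizes scaled by the median of ratios, so it shares that step with the rescaling. The fit was tried on simulated reads with 4-fold changes in 200 genes and a spread common to all genes. It called all 200 in the right direction, and 9 unchanged genes. The spread between the real libraries differed by gene, so this does not show how the fit did on these data. Exact permutation tests used scipy 1.17.1. Deviations from the group means correlated at 0.109, 0.109 and 0.304 between libraries of the same number, and at −0.332 to 0.291 otherwise. These ranges overlap and no label says what a number shares, so a pairing by number was not shown. The main test used no block, and the replicate block served only as an alternative.

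The 7 members and all lists were chosen with earlier results of these data known. Named are the members, every called gene of the related lists with the largest increase and decrease per list, the 2 nearest profiles per tested member, and Timd4 and Lyz2. In the related lists 2 genes enter the counts but are not reported here by name or drawn. Other genes are named where a call changed under an alternative, after their values were seen.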

Additional observations from a re-analysis of the deposited data

How the results depend on the processing

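No member was called without a filter, with a filter of 5 FPKM, with a pseudocount of 0.1, with voom or with the replicate block, whereas rescaling by the median of ratios called 1 and leaving out 1 library gave 0 to 4. All tested genes numbered 660 (232 higher, 428 lower). A filter of 5 FPKM gave 436 (255 lower), no filter 446 (141 higher), the replicate block 855 (352 higher, 503 lower) and rescaling 669 (343 higher, 326 lower). Voom, which also scaled the libraries by the median of ratios, gave 589 (298 higher, 291 lower). Leaving out 1 library gave 8 to 1278 genes (1 to 513 higher, 7 to 765 lower), lowest without PEM-Control-2 and highest without PEM-Control-3. Related-list genes numbered 15, with 9 without a filter, 21 with the replicate block and 0 to 28 with a library left out. The replicate block changed no call of a member. With a library left out, the log2 fold change of Msr1 ran from −0.538 (without PEM-Control-3) to 0.024 (without PEM-Control-2) and that of Blvra from −0.010 (without PEM-Control-1) to 0.313 (without PEM-Control-3). Lipa turned to 0.074 after rescaling and to 0.075 with voom, with and without a filter. Of the other values of named genes, 357 kept direction and side of the threshold, 56 lost and 20 gained a call. The cause of these changes was not tested. The edgeR quasi-likelihood fit was not run, and limma-voom was the only kind of fit on the recovered reads. With 3 libraries a group, exact tests cannot go below 0.1, and Cd163 rests on 7 to 149 reads.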

Other observations

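Gene sets named in the deposited annotation, chosen after their values were seen, overlap with the 7 receptors. Of 27 listed genes annotated to scavenger receptor activity, 5 of them members, 14 were tested, none rose and 2 fell (Cd5l and Prg4), with a median log2 fold change of 0.13, beside 7.31% called and a median of −0.11 over all tested genes. Both calls were lost without PEM-Control-2, and that of Prg4 also without PEM-CKO-1. Prg4, which encodes lubricin and marks large peritoneal macrophages, was at 2.33, 3.98 and 2.95 FPKM in PEM-CKO and at 114, 70.5 and 30.1 FPKM in PEM-Control, with no overlap (−3.97, limma adjusted p = 0.00828).

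Of 26 listed genes annotated to ligand uptake by scavenger receptors, 5 of them members, 15 were tested, Apoe rose and 2 fell (Apol8 and Jchain), beside the same 7.31%. The call of Apoe was lost without PEM-CKO-1 and without PEM-Control-2. Apol8 rests on 6, 9 and 6 reads in PEM-CKO and 145, 206 and 300 in PEM-Control. Jchain rests on 17, 3 and 14 reads in PEM-CKO and 537, 508 and 335 in PEM-Control. Jchain, the joining chain of secreted antibodies, was at 0.192, 0.0338 and 0.163 FPKM in PEM-CKO and at 6.47, 6.21 and 4.41 FPKM in PEM-Control (−2.56, limma adjusted p = 0.000999).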
